A study of Mus musculus with 4 samples.

Results

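The 10 genes described here encode integrin subunits: Itga2b, Itga4, Itga5, Itga6, Itgal, Itgam, Itgb1, Itgb2, Itgb3 and Itgb7. They were found by symbol in the probe annotation, and all 25 of their probe sets were read, out of 34945 probe sets of 18193 genes on the array. Of the 25, 22 were above the floor defined below on at least 1 array and 14 on all 4. RNA came from sorted mouse leukaemia cells, taken from bone marrow with C57BL/6 as strain background. To model acute myeloid leukaemia, HoxA9 and Meis1 had been introduced into marrow carrying the NS-GFP transgene, whose green fluorescent protein is read from part of the nucleostemin promoter. All 4 fractions share these alterations and differ in the sort by c-Kit and NS-GFP, being named, in rising order, c-Kit-NS-GFPlow, then c-Kit-NS-GFPmiddle, then c-Kit+NS-GFPmiddle and finally c-Kit+NS-GFPhigh. Immature blood cells carry c-Kit, which binds stem cell factor. The ages, the number of animals and whether animals were pooled are not given in the sources used here.

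Integrins are receptors made of an alpha and a beta chain that hold cells to matrix and to other cells. In blood cells, Itgb2 pairs with Itgal (LFA-1) or Itgam (Mac-1) and binds ICAMs, complement and fibrinogen on phagocytes and lymphocytes. Itga4 pairs with Itgb1 (VLA-4) or Itgb7 and binds VCAM1, fibronectin and MAdCAM1, and VLA-4 holds immature cells in the marrow. Itga5 and Itga6 pair with Itgb1 to bind fibronectin and laminin, and Itga2b pairs with Itgb3 on megakaryocytes and platelets.

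Each fraction was measured on 1 array, so no test, error over samples or p-value can be given. A gene was read by its brightest probe set, after quantile normalization of the signals and with a floor at 15.3, the median signal of an array. Calls of higher or lower need a difference of at least 2-fold. The repeat measure is a second probe set of the same gene. From such pairs, the log2 ratio of 1 probe set had an SD of 0.48 for c-Kit+NS-GFPhigh over c-Kit-NS-GFPlow, 0.37 for c-Kit+NS-GFPmiddle over c-Kit-NS-GFPmiddle, 0.30 for c-Kit+NS-GFPhigh over c-Kit+NS-GFPmiddle and 0.36 for c-Kit-NS-GFPmiddle over c-Kit-NS-GFPlow. Error of the probes is all that this SD covers, not that of the sort or between mice. In sorted cells, fewer cells of a type and less RNA per cell cannot be told apart.

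The sort itself could be read in Kit, whose signal was 6.58, 26.4, 690 and 479 from c-Kit-NS-GFPlow to c-Kit+NS-GFPhigh, and in Gnl3, which encodes nucleostemin, with 183, 584, 1109 and 1299. The 5 measured genes of immature granulocytic cells were above the floor in every fraction, with a summed signal of 10015, 14241, 24976 and 26548 in that order. Genes of other cell types were read as well, most of them on the c-Kit-NS-GFPlow array. Of 7 genes of T and NK cells, 4, 0, 1 and 1 were above the floor, of 7 dendritic cell genes 7, 5, 3 and 3, and of 6 plasma cell genes 6, 4, 2 and 4. Counts of integrin genes are therefore also given with c-Kit-NS-GFPmiddle in place of c-Kit-NS-GFPlow. In the Actb control probe sets the 3' signal over the 5' signal was 2.50, 3.28, 3.98 and 4.70, and in those of Gapdh 3.37, 3.91, 3.10 and 3.41. The Actb ratio rose in the order of the sort, and the part of RNA quality in the results below was not tested. The authors' own scaling moved the balance of calls over all genes. Of the genes past 2-fold, the share that was higher in c-Kit+NS-GFPhigh than in c-Kit-NS-GFPlow was 54.1% here, 42.5% with that scaling and 49.4% in the second table. For c-Kit+NS-GFPmiddle over c-Kit-NS-GFPmiddle these shares were 40.3%, 57.2% and 42.3%. For c-Kit+NS-GFPhigh over c-Kit+NS-GFPmiddle they were 50%, 39.0% and 20.9%. For c-Kit-NS-GFPmiddle over c-Kit-NS-GFPlow they were 55.0%, 23.0% and 56.8%.

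Of the 6 members with a promoter window, the 3 that were at least 2-fold lower in c-Kit+NS-GFPhigh than in c-Kit-NS-GFPlow are shown first. The windows run from 250 bases before the start to 50 after it on GRCm38.p6. The set of promoter windows used here holds 6 of the 10 members. Capitals mark letters that match 1 of 5 motifs on either strand.
Itgam, chr7:128062390-128062689, plus strand: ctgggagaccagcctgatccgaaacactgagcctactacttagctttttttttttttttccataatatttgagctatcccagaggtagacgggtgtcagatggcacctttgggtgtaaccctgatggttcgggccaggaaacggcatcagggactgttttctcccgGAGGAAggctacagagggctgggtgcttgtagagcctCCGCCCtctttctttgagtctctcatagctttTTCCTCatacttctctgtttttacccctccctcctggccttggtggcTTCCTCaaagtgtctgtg
Itgb7, chr15:102231886-102232185, minus strand: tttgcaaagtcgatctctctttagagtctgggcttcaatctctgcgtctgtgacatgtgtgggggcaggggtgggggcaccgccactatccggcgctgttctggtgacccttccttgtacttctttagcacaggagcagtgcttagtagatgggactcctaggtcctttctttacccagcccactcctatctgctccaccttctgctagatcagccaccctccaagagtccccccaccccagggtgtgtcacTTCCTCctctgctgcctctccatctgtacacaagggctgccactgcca
Itga4, chr2:79255176-79255475, plus strand: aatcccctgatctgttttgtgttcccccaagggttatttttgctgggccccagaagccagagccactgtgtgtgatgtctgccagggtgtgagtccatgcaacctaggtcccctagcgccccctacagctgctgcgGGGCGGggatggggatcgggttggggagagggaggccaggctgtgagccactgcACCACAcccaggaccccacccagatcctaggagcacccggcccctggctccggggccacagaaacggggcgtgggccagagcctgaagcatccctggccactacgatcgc

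The letters GAGGAA, part of the site of the myeloid factor PU.1, occurred 3 times in the Itgam window, 84 and 15 bases before the start and 32 bases after it. They occurred once in the Itgb7 window, 2 bases after the start, and not in that of Itga4. Of 32851 such windows of 27025 genes, 28.3% held these letters. GGGCGG, the letters of an Sp1 site, occurred once each in the Itgam and Itga4 windows (35.7% of all windows). TGTGGT, the letters of a Runx site, occurred once in that of Itga4 (16.8%). TTGCNNNAA for C/EBP (9.56%) and AGATAA for Gata (11.2%) matched none of the 3 windows. The windows of Itga2b, Itga5 and Itgb1, whose transcripts were not 2-fold lower in c-Kit+NS-GFPhigh than in c-Kit-NS-GFPlow, held GAGGAA 2, 1 and 1 times and GGGCGG 0, 2 and 1 times. GAGGAA was thus in all 3 windows of members that were not lower and in 2 of the 3 shown. The matches in the 3 printed windows did not overlap one another. The start used for Itgb7 lies 1470 bases inside the span that RefSeq gives the gene. A match describes the letters only.

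At both ends of the sort, 6 of the 10 genes were at least 2-fold lower in c-Kit+NS-GFPhigh than in c-Kit-NS-GFPlow, and 0 were higher. They were Itgb7, Itgb2, Itgam, Itga4, Itgb3 and Itgal. Itga2b, Itga6 and Itgb1 were above 0 and under 2-fold, and Itga5 was near 0. Over all 11278 genes compared, 13.6% were at least 2-fold lower and 16.1% higher. The median log2 ratio of the 10 genes was -1.63, beside 0.09 over all genes. With c-Kit-NS-GFPmiddle in place of c-Kit-NS-GFPlow, 4 of the 10 were lower, namely Itgb7, Itgam, Itgb2 and Itga4, with 6.52% of all genes lower. By brightest probe set, 7 of the 10 genes had their highest signal in c-Kit-NS-GFPlow, 2 in c-Kit+NS-GFPmiddle and 1 in c-Kit+NS-GFPhigh. The same count over all genes is not given here, so this describes the 10 genes only.

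**Figure D1:**
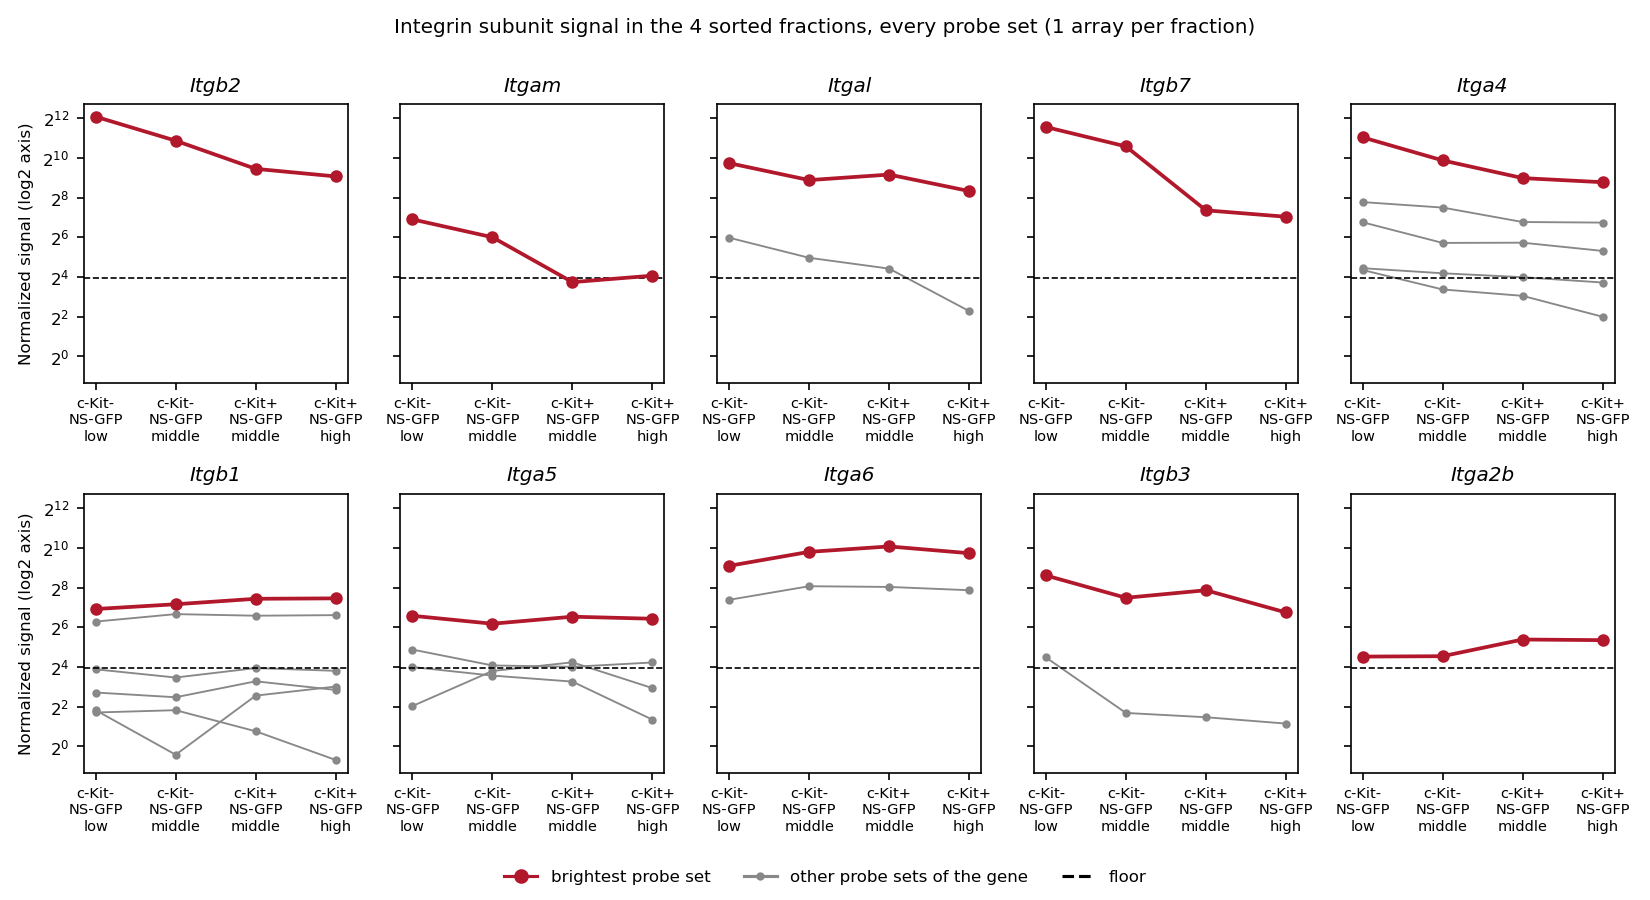
Normalized signal on a log2 axis of every probe set of the 10 integrin genes in the 4 fractions, with 1 array per fraction. Red lines are the brightest probe set of each gene, grey lines its other probe sets, and the dashed line the floor of 15.3. In their brightest probe sets Itgb2, Itgb7 and Itga4 fall at each step. Their last step has log2 ratios of -0.38, -0.32 and -0.21, beside an SD of a probe set of 0.30. Itgal and Itgb3 zigzag, and Itgb1, Itga5, Itga6 and Itga2b stay within 2-fold.

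The beta 2 family carries the receptors of mature phagocytes and lymphocytes. Itgb2, the beta chain that Itgal, Itgam and Itgax share, had signals of 4318, 1865, 699 and 536.5 from c-Kit-NS-GFPlow to c-Kit+NS-GFPhigh. The signal was lower at every step, and the neighbours c-Kit+NS-GFPmiddle and c-Kit+NS-GFPhigh differed by 0.38 on the log2 scale, little more than the SD of a probe set. At the ends it was 8.05-fold lower in c-Kit+NS-GFPhigh (log2 ratio -3.01), and 1.68% of genes had a lower ratio. It was 2.67-fold lower in c-Kit+NS-GFPmiddle than in c-Kit-NS-GFPmiddle and 2.32-fold lower in c-Kit-NS-GFPmiddle than in c-Kit-NS-GFPlow. Both c-Kit+ fractions lay below both c-Kit- fractions.

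Itgam, which encodes CD11b, the alpha chain of the phagocyte receptor Mac-1, had signals of 120, 64.2, 13.4 and 16.8 in the same order. Its 1 probe set was below the floor in c-Kit+NS-GFPmiddle and just above it in c-Kit+NS-GFPhigh, so the c-Kit+ fractions have no order. It was 7.13-fold lower in c-Kit+NS-GFPhigh than in c-Kit-NS-GFPlow, and at least 4.20-fold lower in c-Kit+NS-GFPmiddle than in c-Kit-NS-GFPmiddle (log2 ratio -2.07, with 1.09% of genes lower). Within the c-Kit- cells the ratio of middle over low was -0.90. With the floor at the 75th percentile of signals, 3 of the 4 arrays lay at the floor and the log2 ratio at the ends was -0.30. The summed signals of genes of mature myeloid cells, which carry Mac-1, were lower at each step of the sort. The 6 measured genes of monocytes and macrophages summed to 12563, 9152, 4322 and 3362 from c-Kit-NS-GFPlow to c-Kit+NS-GFPhigh, with 6, 6, 6 and 5 above the floor, and the 7 late neutrophil genes to 8485, 4139, 3306 and 3137, with 7, 7, 5 and 5 above it. Ngp, with 3385, 1476, 2134 and 2155, held most of the late neutrophil sum in both c-Kit+ fractions. Ngp and Camp (521, 298, 447 and 358) were higher in c-Kit+NS-GFPmiddle than in c-Kit-NS-GFPmiddle, unlike Itgam and Itgb2. The other late neutrophil genes were lower there. The part of mature myeloid cells in the Itgam and Itgb2 signals was not tested.

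Itgal, the alpha chain of LFA-1, took another course. Its signals were 853, 472, 572 and 322 from c-Kit-NS-GFPlow to c-Kit+NS-GFPhigh. It was 2.65-fold lower in c-Kit+NS-GFPhigh than in c-Kit-NS-GFPlow, and both NS-GFP steps were downward, by -0.85 for c-Kit-NS-GFPmiddle over c-Kit-NS-GFPlow and -0.83 for c-Kit+NS-GFPhigh over c-Kit+NS-GFPmiddle. For c-Kit+NS-GFPmiddle over c-Kit-NS-GFPmiddle its ratio was 0.28, within 1 SD of a probe set from 0. The dimmer probe set of Itgal had 63.1, 31.3, 21.5 and 4.88, so that it was lower at every step. The mean of both probe sets gave -0.13 for c-Kit+NS-GFPmiddle over c-Kit-NS-GFPmiddle. T and NK cells also carry LFA-1. Of their 7 genes, Ccl5, Cd2, Thy1 and Nkg7 were above the floor in c-Kit-NS-GFPlow, at 219, 68.2, 52.9 and 36.7, and the first 3 were below it in the other fractions. Nkg7 had 7.38, 26.45 and 42.3 in those fractions, and was highest in c-Kit+NS-GFPhigh, where Itgal was lowest. Cd3e, Cd3g and Cd3d, which define T cells, were below the floor in all 4 fractions. The part of T and NK cells in the Itgal signal was not tested.

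The alpha 4 family held the widest range. Itgb7, which with Itga4 forms the receptor by which lymphocytes home to gut vessels, had signals of 3009.9, 1529, 164 and 131 in that order. Both c-Kit- fractions were far above both c-Kit+ fractions. It was 22.9-fold lower in c-Kit+NS-GFPhigh than in c-Kit-NS-GFPlow (log2 ratio -4.52), and 49 of 11278 genes had a lower ratio. Most of this lay between the middle gates, where Itgb7 was 9.30-fold lower in c-Kit+NS-GFPmiddle than in c-Kit-NS-GFPmiddle (log2 ratio -3.22, with 37 of 11080 genes lower). The c-Kit- step was -0.98 and the c-Kit+ step -0.32. Against c-Kit-NS-GFPmiddle in place of c-Kit-NS-GFPlow, c-Kit+NS-GFPhigh was 11.6-fold lower.

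Markers of cells that carry Itgb7 outside this leukaemia moved in the same direction in part. The summed signal of the 7 dendritic cell genes was 4506, 1422, 993 and 781 from c-Kit-NS-GFPlow to c-Kit+NS-GFPhigh, that of the 6 plasma cell genes 11483, 6202, 4986 and 4204.5, and that of the 7 T and NK cell genes 410, 51.6, 39.9 and 68.6. Xbp1 and Ighm together held most of the plasma cell sum in all 4 fractions, and each changed under 2-fold between any 2 fractions. The antibody gene Igha had 4915, 609, 11.8 and 65.4 in the same order and Jchain, the chain that joins antibodies, 538, 41.6, 1.10 and 22.1, so both were below the floor in c-Kit+NS-GFPmiddle, where Itgb7 was 9.30-fold lower than in c-Kit-NS-GFPmiddle. Among the dendritic cell genes, H2-Aa and Cd74, of antigen presentation, had 1230.0 and 950.4 in c-Kit-NS-GFPlow, 254 and 89.3 in c-Kit-NS-GFPmiddle, 18.9 and 13.6 in c-Kit+NS-GFPmiddle and 51.2 and 11.3 in c-Kit+NS-GFPhigh. H2-Eb1 had 623, 82.95, 13.75 and 10.1 in the same order. H2-Ab1, with 386, 60.5, 104 and 99.0, was higher in c-Kit+NS-GFPmiddle than in c-Kit-NS-GFPmiddle, unlike Itgb7. Flt3, with 1280, 918, 818 and 602, held most of the dendritic cell sum in every fraction but c-Kit-NS-GFPlow. In c-Kit-NS-GFPmiddle, where Itgb7 had 1529, none of the T and NK cell genes was above the floor. The 7 mast cell and basophil genes summed to 585, 586, 1062 and 812, with Fcer1a and Tpsb2 at the floor in all 4 fractions. The part of these cells in the Itgb7 signal was not tested.

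Itga4, the alpha chain of VLA-4, had signals of 2098, 938, 506 and 438 from c-Kit-NS-GFPlow to c-Kit+NS-GFPhigh in its brightest probe set. It was 4.79-fold lower in c-Kit+NS-GFPhigh than in c-Kit-NS-GFPlow (log2 ratio -2.26) and 2.24-fold lower in c-Kit-NS-GFPmiddle than in c-Kit-NS-GFPlow. For c-Kit+NS-GFPmiddle over c-Kit-NS-GFPmiddle the ratio was -0.89, under 2-fold. Between the c-Kit+ fractions Itga4 had -0.21, within 1 SD of a probe set from 0. All 5 of its probe sets had lower values in c-Kit+NS-GFPhigh than in c-Kit-NS-GFPlow. The next brightest had 219, 181, 109 and 107, with a log2 ratio of -1.03 at the ends, and the third had 108, 52.7, 53.1 and 39.8, with -1.44. The remaining 2 were near the floor, with -0.51 and -0.42.

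Itgb1, the beta chain of VLA-4 and of the fibronectin and laminin receptors, moved little. Its brightest probe set had 121, 143, 173 and 176 in the same order, a log2 ratio of 0.54 at the ends. The second had 78.2, 102, 96.0 and 98.0, with 0.33, under 1 SD of a probe set. A further probe set passed the floor only in c-Kit+NS-GFPmiddle, at 15.4, and 3 lay below it on every array. So in VLA-4 the alpha transcript was lower in c-Kit+NS-GFPhigh than in c-Kit-NS-GFPlow while the beta transcript was not, and in Itga4 with Itgb7 both transcripts were lower.

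Itga5, the alpha chain of the classical fibronectin receptor, had 95.8, 72.6, 92.8 and 86.4 from c-Kit-NS-GFPlow to c-Kit+NS-GFPhigh. Its range over the 4 fractions was 1.32-fold, the narrowest of the 10, and its end ratio of -0.15 was under 1 SD of a probe set. A second probe set, with 29.4, 16.9, 16.1 and 18.8, gave -0.65, and the other 2 passed the floor on 1 array each.

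Itga6, an alpha chain of laminin receptors found on stem cells of many tissues, was lowest in c-Kit-NS-GFPlow. Its signals were 548, 892, 1077 and 851 in that order, and those of its other probe set 167, 269, 262 and 234. Both probe sets had their lowest value in c-Kit-NS-GFPlow. The log2 ratios of c-Kit-NS-GFPmiddle over c-Kit-NS-GFPlow were 0.70 and 0.68, and those of c-Kit+NS-GFPhigh over c-Kit-NS-GFPlow were 0.64 and 0.48. Neither reached 2-fold, and the other 3 fractions differed from one another by 0.34 or less on the log2 scale in the brightest probe set.

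The platelet receptor chains went apart. Itgb3, which pairs with Itga2b or with Itgav, had signals of 392, 180, 234 and 108 from c-Kit-NS-GFPlow to c-Kit+NS-GFPhigh. It was 3.64-fold lower in c-Kit+NS-GFPhigh than in c-Kit-NS-GFPlow (log2 ratio -1.86). As with Itgal, the steps were downward within each c-Kit status and upward between the middle gates, with -1.12 for c-Kit-NS-GFPmiddle over c-Kit-NS-GFPlow, 0.38 (about 1 SD of a probe set) for c-Kit+NS-GFPmiddle over c-Kit-NS-GFPmiddle and -1.12 for c-Kit+NS-GFPhigh over c-Kit+NS-GFPmiddle. A ratio above 0 between the middle gates was found in 122 of the 1539 genes that were 2-fold lower at the ends (7.93%). The other probe set had 22.4 in c-Kit-NS-GFPlow and was below the floor in the other 3 fractions. Taking the mean of both probe sets gave -0.56 for c-Kit+NS-GFPhigh over c-Kit+NS-GFPmiddle, under 2-fold.

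Itga2b, which encodes CD41, had 23.1, 23.4, 41.9 and 40.9 in the same order, so both c-Kit+ fractions lay above both c-Kit- fractions. Its ratio was 0.83 at the ends and 0.84 for c-Kit+NS-GFPmiddle over c-Kit-NS-GFPmiddle, under 2-fold, in a probe set near the floor. Of the 9 measured genes of megakaryocytes and platelets, 3, 3, 1 and 3 were above the floor from c-Kit-NS-GFPlow to c-Kit+NS-GFPhigh, with a summed signal of 175, 79.9, 52.4 and 125. Ppbp, Gp6 and Gp9 were below the floor in all 4 fractions, and Pf4 had 19.5, 18.1, 9.88 and 17.9. Vwf, with 46.1, 3.89, 1.1 and 0.625, and F2r, with 62.35, 5.88, 2.2 and 40.3, held most of the sum in c-Kit-NS-GFPlow. Treml1 had 11.6, 23.6, 3.8 and 24.5. The part of such cells in the Itga2b and Itgb3 signals was not tested.

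At each step of the sort the genes divided differently. Between the middle gates, 3 of the 10 genes were at least 2-fold lower in c-Kit+NS-GFPmiddle than in c-Kit-NS-GFPmiddle, namely Itgb7, Itgam and Itgb2, and 0 were higher. Over all genes 5.29% were lower and 3.57% higher there. Between the c-Kit- fractions, 3 of 10 were lower in c-Kit-NS-GFPmiddle than in c-Kit-NS-GFPlow, namely Itgb2, Itga4 and Itgb3, and 0 were higher. Over all genes 5.46% were lower and 6.67% higher. The authors' scaling gave 6 there, with the median of all genes at -0.27 in place of 0.03, and the mean of probe sets gave 1. Between the c-Kit+ fractions, 1 of 10 was lower in c-Kit+NS-GFPhigh than in c-Kit+NS-GFPmiddle, namely Itgb3, and 0 were higher, with 1.01% of all genes lower and 1.01% higher. With the mean of probe sets this count was 0. These comparisons share arrays, so their ratios are not independent of one another.

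Written as shares of the end-to-end log2 difference, Itgb7 had 71.2% between the middle gates, 21.6% within the c-Kit- cells and 7.16% within the c-Kit+ cells. In the same order Itgam had 73.1%, 31.8% and -4.84%, with its c-Kit+NS-GFPmiddle signal raised to the floor. Itgb2 had 47.1%, 40.3% and 12.7%, and Itga4 had 39.4%, 51.4% and 9.19%. Itgb3 had 60.4% within the c-Kit- cells and 59.96% within the c-Kit+ cells, offset by -20.3% between the middle gates. Itgal divided in the same way, with 60.7%, 59.0% and -19.7%. Over the 1539 genes lower at the ends, the median step was -0.80 within the c-Kit- cells, -0.70 between the middle gates and -0.19 within the c-Kit+ cells.

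**Figure D2:**
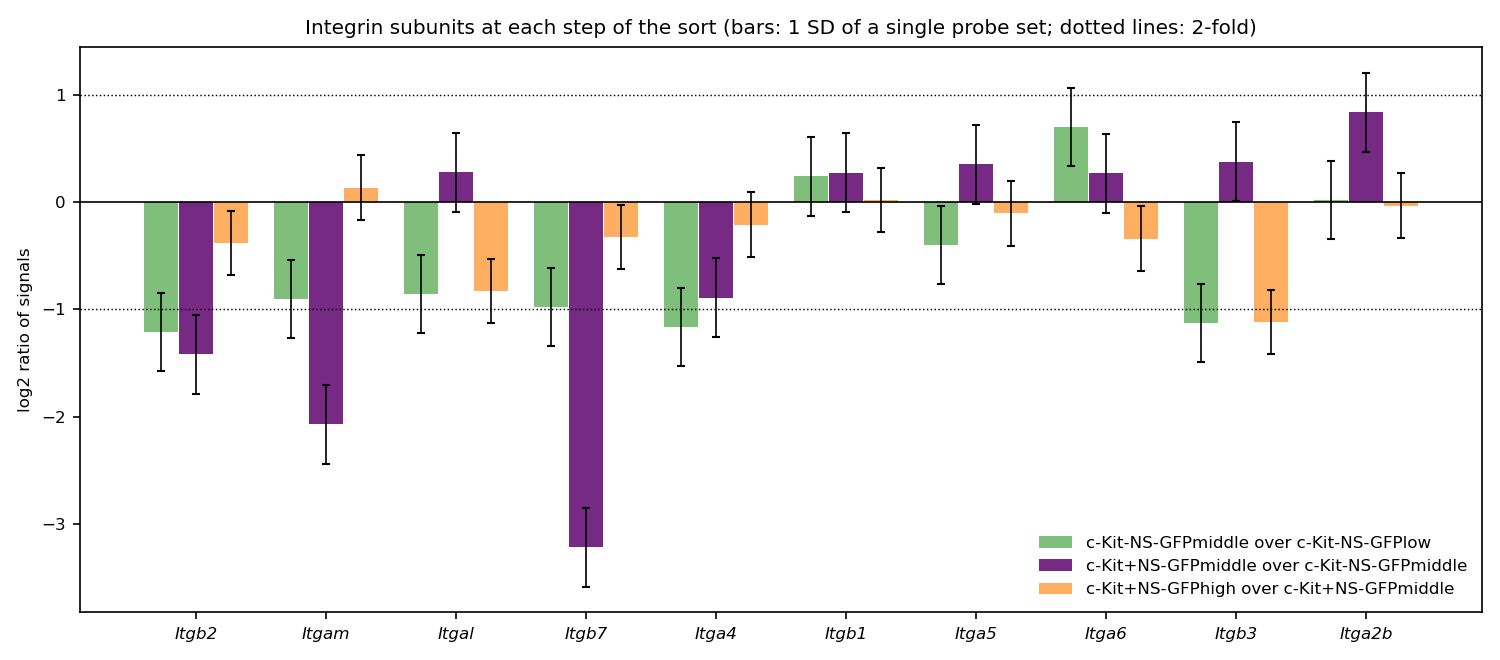
Log2 ratio of the 10 integrin genes at the 3 steps of the sort, as bars from 0. Error bars are 1 SD of a single probe set's ratio and dotted lines mark 2-fold. Itgb7 and Itgam reach -3.22 and -2.07 between the middle gates, whereas Itgal and Itgb3 have bars below 0 in both NS-GFP steps and above 0 between the middle gates.

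Genes whose pattern was closest to the 3 widest members above the floor on all arrays were sought among 9147 genes, by the root mean square difference of log2 signals centred on each gene's mean over the 4 fractions. For Itgb7 they were Wfdc17 (0.10), Capn2, a calpain protease (0.11), and Pld4 (0.11). For Itgb2 they were Cyth4, a cytohesin (0.04), the Toll-like receptor gene Tlr2 (0.06) and Adgre5, which encodes CD97 (0.06). For Itga4 they were the phosphatase genes Ppm1m (0.02) and Ptpn1 (0.04), and Arhgap9 (0.05). Among the members, Itgb2 stood at place 116 of the 9146 other genes by likeness to Itgb7, and Itga4 at place 164 by likeness to Itgb2. Only 4 arrays enter this measure.

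**Figure D3:**
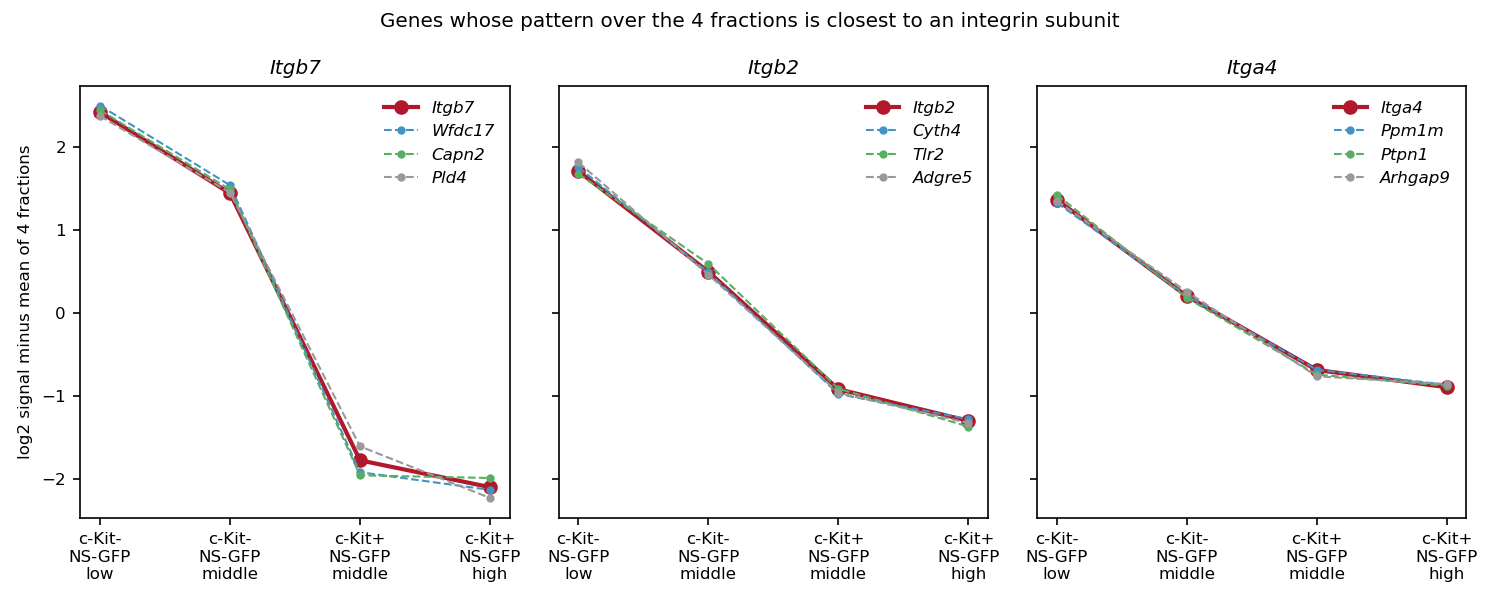
Log2 signal of Itgb7, Itgb2 and Itga4, each minus its mean over the 4 fractions, with the 3 genes of closest pattern as dashed lines. Each dashed line has a root mean square difference of 0.11 or less from the red one, and Itgb7 and its closest genes fall most between the middle gates.

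Integrin subunits outside the 10 genes were mostly dim. Of 14 on the array, 7 could be compared at the ends, and 2 were lower in c-Kit+NS-GFPhigh than in c-Kit-NS-GFPlow (13.6% of all genes were), namely Itgb5 and Itgax. Itgb5, a partner of Itgav, had signals of 796, 392, 103 and 96.7 from c-Kit-NS-GFPlow to c-Kit+NS-GFPhigh. It was 8.24-fold lower in c-Kit+NS-GFPhigh than in c-Kit-NS-GFPlow and 3.80-fold lower in c-Kit+NS-GFPmiddle than in c-Kit-NS-GFPmiddle. At the ends its other 3 probe sets gave log2 ratios of -1.79, -2.63 and -3.30. By pattern it stood at place 49 of 9146 for Itgb2. Itgax, which encodes CD11c, a beta 2 partner of dendritic cells and macrophages, had 128 in c-Kit-NS-GFPlow and was below the floor in the other 3 fractions, at least 8.35-fold lower in c-Kit-NS-GFPmiddle than in c-Kit-NS-GFPlow. The dendritic cell genes given above were also highest in c-Kit-NS-GFPlow, and their part was not tested. Itgav, named for its pairing with Itgb3 and Itgb5 after its values were seen, had 454, 440, 453 and 377.

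Genes that activate integrins or tie them to actin were compared next. Of 30 at the ends, 14 were at least 2-fold lower in c-Kit+NS-GFPhigh than in c-Kit-NS-GFPlow and 0 higher, beside 13.6% of all genes lower and 16.1% higher. A ratio below 0 was found in 25, with a median log2 ratio of -0.89 beside 0.09 over all genes. The lowest was Fgr, a Src family kinase of myeloid integrin signalling, with 21.4 in c-Kit+NS-GFPhigh and 297 in c-Kit-NS-GFPlow (13.9-fold lower, log2 ratio -3.79), while its second probe set gave -2.45. Apbb1ip, the RIAM protein that brings talin to Rap1, had 42.5 in c-Kit+NS-GFPhigh and 379 in c-Kit-NS-GFPlow (8.91-fold lower, log2 ratio -3.16), while its second probe set gave -1.31. Parvb, beta-parvin, was at least 8.30-fold lower, and the adaptor Fyb 7.71-fold. Fermt3 (kindlin-3) and Rap1b, named for their roles after their values were seen, had 2461 and 2549.7 in c-Kit+NS-GFPhigh and 3803 and 3947.5 in c-Kit-NS-GFPlow, under 2-fold.

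Between the middle gates, 6 of 30 activators and adaptors were lower in c-Kit+NS-GFPmiddle than in c-Kit-NS-GFPmiddle, with 5.29% of all genes lower. Besides Fgr (5.31-fold), Parvb (3.73-fold) and Fyb (2.49-fold) they were Cytip, a cytohesin-binding regulator of LFA-1 (3.33-fold), and the focal adhesion genes Vcl, vinculin (2.45-fold), and Zyx, zyxin (2.196-fold). The second probe set of Zyx, at 54.2 in c-Kit+NS-GFPmiddle and 31.4 in c-Kit-NS-GFPmiddle, went the other way, and that of Fgr, at 22.6 and 27.4, differed by -0.28. Within the c-Kit- cells 6 of 30 were lower in c-Kit-NS-GFPmiddle than in c-Kit-NS-GFPlow, with 5.46% of all genes lower, namely Apbb1ip, Fgr, Ptk2b, Tln1, Zyx and Plaur. Tln1, talin, which opens the integrin heads, had 768 in c-Kit-NS-GFPmiddle and 1836 in c-Kit-NS-GFPlow (2.39-fold lower), and its other 2 probe sets gave log2 ratios of -0.41 and -0.16. Between the c-Kit+ fractions none of the 30 reached 2-fold, with 1.01% of all genes lower and 1.01% higher.

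Of 24 ligand genes on the array, 9 could be compared at the ends, with 3 lower and 2 higher, beside 13.6% and 16.1% of all genes. Fn1, fibronectin, bound by Itga4 and Itga5, was 6.01-fold lower in c-Kit+NS-GFPhigh, with 1283 in c-Kit+NS-GFPhigh and 7706 in c-Kit-NS-GFPlow. Its second probe set had 44.0 in c-Kit+NS-GFPhigh and 1102 in c-Kit-NS-GFPlow, a log2 ratio of -4.65 beside -2.59 for the brightest, so the size of the difference depends on the probe set. Icam1, bound by both beta 2 receptors, was 3.35-fold lower, with 63.2 in c-Kit+NS-GFPhigh and 212 in c-Kit-NS-GFPlow. Vwf was at least 3.02-fold lower. Higher were Icam4, at least 2.18-fold, and Vcam1, the partner of VLA-4, with 108 in c-Kit+NS-GFPhigh and 7.85, below the floor, in c-Kit-NS-GFPlow (at least 7.08-fold). The second probe set of Vcam1 had 43.3 in c-Kit+NS-GFPhigh and 38.6 in c-Kit-NS-GFPlow. Between the middle gates Fn1 was 6.08-fold lower and Icam1 2.79-fold lower in c-Kit+NS-GFPmiddle than in c-Kit-NS-GFPmiddle, and Vcam1 was 5.96-fold higher. The second probe set of Vcam1 had 26.2 in c-Kit+NS-GFPmiddle and 14.6, below the floor, in c-Kit-NS-GFPmiddle, a log2 ratio of 0.78 and under 2-fold.

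**Figure D4:**
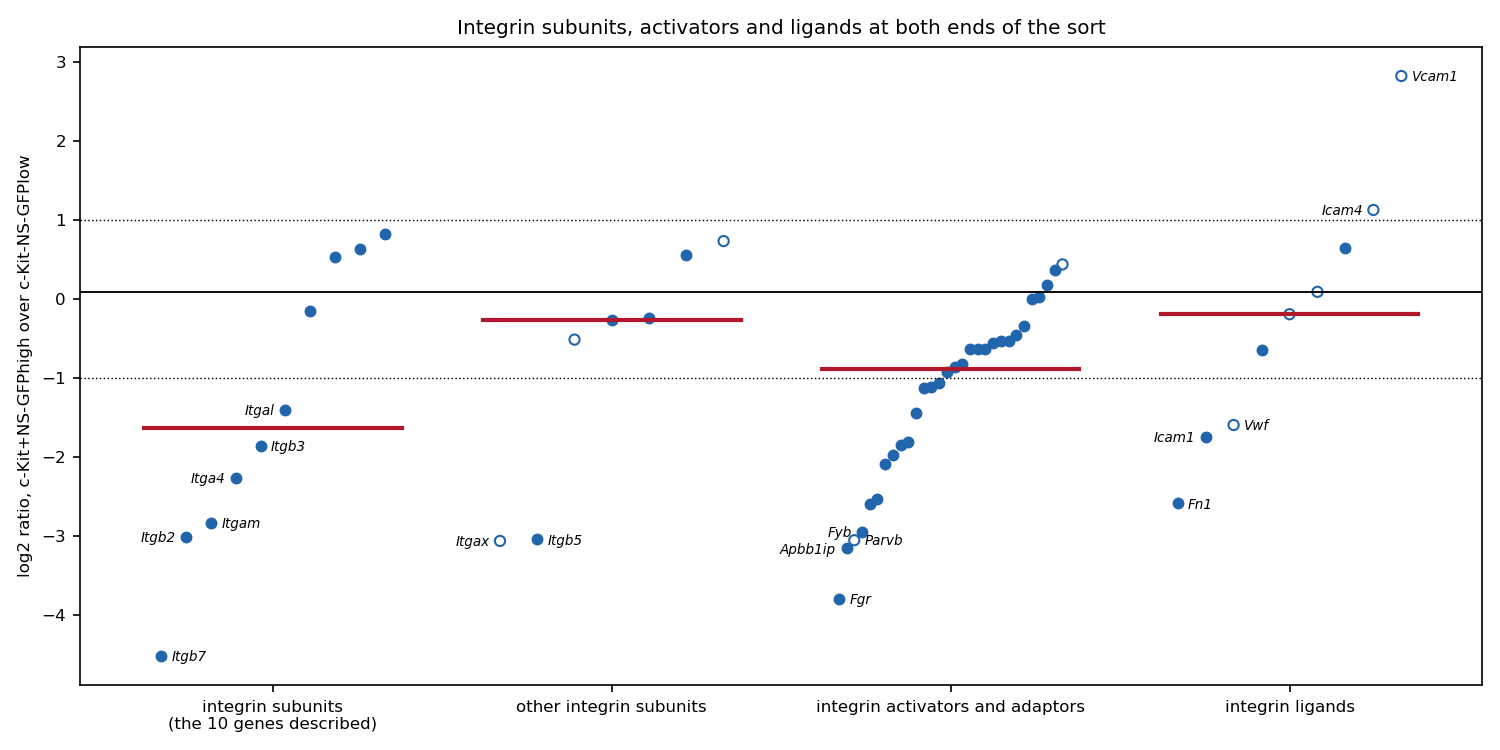
Log2 ratio of c-Kit+NS-GFPhigh over c-Kit-NS-GFPlow for each gene above the floor on at least 1 of both arrays, in 4 lists. Filled points were above the floor on both arrays, open points are lower bounds, red bars are list medians, the black line is the median of all genes (0.09) and dotted lines mark 2-fold. The medians are -1.63 for the 10 integrin genes, -0.27 for other subunits, -0.89 for activators and adaptors and -0.19 for ligands.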

How the data were processed

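RNA of 4 sorted fractions was hybridised as biotin-labelled cRNA to Affymetrix mouse arrays of 45101 probe sets, 1 array per fraction. The submitters' processing notes name GCOS 1.2, MAS5 and R 3.0.2, per the labels, without tying a tool to a table. One table deposited by the authors gives intensity on a linear scale. The other one deposited by the authors gives log2 values for 17419 probe sets. These differ from the log2 of the linear signals by a fixed amount on each array, namely 0.42, 0.65, 0.49 and 0.44 in rising order of the sort.

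After removal of controls, 45037 probe sets had trimmed mean signals (2% off each end) of 120, 99.0, 111 and 113. They were quantile normalized, floored at the 50th percentile (15.3) and taken to log2 with Python 3.11.15, numpy 2.4.6 and pandas 2.3.3. The normalization was tested on simulated data. Symbols came from the platform annotation, updated by gene ID for 34741 of 34945 probe sets with 1 gene. Each gene was read by its brightest probe set. A comparison leaves out genes that both of its arrays put at the floor. A fold against the floor is a lower bound. With 1 array per group the number of arrays limits the precision, and no test was run. No column was left unused.

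The genes, lists and rules were chosen with earlier results of these data known. Named were the 10 genes, members of the lists of other subunits, activators and ligands past 2-fold (where more than 8 passed at the ends, the 4 furthest), and the 3 genes closest in pattern to the 3 widest members. Among genes close in pattern, predicted or clone-named ones were passed over. The alternatives were the authors' scaling, the second table, other floors, no floor, the mean of probe sets, and leaving out probe sets whose ID ends in _s_at or _x_at.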

Additional observations from a re-analysis of the deposited data

How the results depend on the processing

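The number of integrin genes at least 2-fold higher was 0 in all 4 comparisons under every alternative run. The number at least 2-fold lower in c-Kit+NS-GFPhigh than in c-Kit-NS-GFPlow was 6 of 10, but 5 of 8 genes in the second table, 5 of 8 once signals under the 75th percentile were floored, and 4 of 10 with c-Kit-NS-GFPmiddle in place of c-Kit-NS-GFPlow. The number lower in c-Kit+NS-GFPmiddle than in c-Kit-NS-GFPmiddle was 3 of 10, but 2 of 8 in the second table and 2 of 7 under that higher floor. The number lower in c-Kit-NS-GFPmiddle than in c-Kit-NS-GFPlow was 3. It was 6 with the authors' scaling, where Itgam, Itgb7 and Itgal passed 2-fold as well, and 1 with the mean of probe sets. Over all genes, 604 of 11053 were lower there with the main processing. With the authors' scaling 1272 of 11056 were, and with the mean of probe sets 421 of 11102. The number lower in c-Kit+NS-GFPhigh than in c-Kit+NS-GFPmiddle was 1, but 0 with the mean of probe sets. Of 262 log2 ratios of single genes recomputed under the alternatives, 254 moved by no more than the SD of a probe set, 8 by more, and 0 of the ratios past 2-fold changed sign. Those 8 were 2 of Itgam, when signals under the 75th percentile were floored, and 6 of Itga4, Itgal and Itgb3 with the mean of probe sets. That floor put Itgam at the floor on every array but that of c-Kit-NS-GFPlow. The mean takes in dimmer probe sets of Itga4, Itgal and Itgb3, some of them at the floor on some arrays. Much of the sameness was fixed by the settings. With the floor at the 25th percentile or with no floor, only ratios of Itgam, among 40 each, could differ from the main ones. Leaving out _s_at and _x_at probe sets repeated all 40, since no brightest probe set of the members has such an ID. The second table could change the scaling only. It holds no probe set of Itgam or Itga2b, so it gave values for 8 of the 10 genes. The order of the fractions changed for Itga2b, Itga6 and Itgb1 with the authors' scaling, for Itgb1 in the second table and for Itgal with the mean of probe sets. With the highest floor Itga2b and Itga5 lay at it on all 4 arrays and had no order. Itgam, Itgb2, Itgb7 and Itga2b have 1 probe set each, so no second one bears on them. No paired analysis was possible because each group has 1 array. The distance of a probe set's signal from the floor limits Itgam, Itga2b and Itga5.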
